A study of Mus musculus with 6 samples.

Results

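The genes described here encode the proteins of the mitochondrial ribosome. They are the rows of the deposited count table annotated as protein-coding whose symbol begins with Mrpl or Mrps, which gave 78 of 18543 genes, 49 with an Mrpl and 29 with an Mrps symbol. Messenger RNA was measured in group 2 innate lymphoid cells (ILC2s), lymphocytes without rearranged antigen receptors that release type 2 cytokines, purified from lung tissue of 8-week-old C57BL/6 mice. All mice, knockout and wild type alike, had received 0.5 µg of recombinant mouse IL-33 through the nose on each of 3 days, and cells were taken on day 4. The 3 libraries labelled Atg5-/- are called KO 1 to KO 3 and the 3 labelled wild type WT 1 to WT 3, each made from 10 ng of RNA, and the labels name no promoter, Cre driver or deleted exon for the knockout. Whether the libraries of a label stem from separate animals is not said, so the p-values below reflect only how much these samples vary, and part of that variation may be technical.

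Mitochondrial ribosomes translate the few messenger RNAs of the mitochondrial genome, all of which encode subunits of the respiratory chain and the ATP synthase. Their RNAs are mitochondrial, but every one of their proteins is encoded in the nucleus, made in the cytosol and imported. Some of the proteins descend from those of bacterial ribosomes, and others were added in the mitochondrial lineage. In ILC2s, as in other lymphocytes, respiration is one of the supplies of energy for cytokine release and division.

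By role, 51 of the 78 members belong to the large subunit, which joins amino acids, and 26 to the small subunit, which reads the messenger RNA. Of the large subunit proteins 30 have a bacterial counterpart and 21 are specific to mitochondria, and of the small subunit proteins 16 have a counterpart and 10 do not. Names and places differ for a few: Mrps30 and Mrps18a carry small subunit symbols but sit in the large subunit. Mrps36 is counted apart because its protein is now assigned to the 2-oxoglutarate dehydrogenase complex. The table held 78 of the 78 protein-coding Mrpl and Mrps genes of GENCODE vM21, spread over 17 chromosomes. Another 4 rows with such symbols were annotated as pseudogenes and left out of the set.

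Libraries summed to between 28827545 and 33662979 estimated counts, and no member had fewer than 400 in any library, so all 78 passed the filter on low counts. Atg5, the targeted gene, did not sort by label. Its level was 23.03, 25.6 and 52.2 CPM (CPM are counts scaled to a common library size) in KO 1, KO 2 and KO 3, against 66.3, 71.8 and 21.8 CPM in WT 1, WT 2 and WT 3. The library labelled WT 3 thus lay below all 3 libraries labelled KO, going against its label, so each direction below is one between labels, and results are given with and without WT 3. The library labelled KO 3 was intermediate in Atg5, above KO 1 and KO 2 and nearer to WT 1 and WT 2. For Gata3, Klrg1, Pecam1 and Epcam, given below, KO 3 stood with KO 1 and KO 2, apart from WT 1 and WT 2. Whether the label of KO 3 is right was not tested, and the level of 1 gene cannot decide it. All 10 ILC2 markers looked for were present in each library, but not at one level. Markers of other cells were low in sum, at 25.2 to 26.6 CPM in KO libraries and 23.7 to 43.4 CPM in WT libraries for 6 T cell genes, 6.67 to 14.3 CPM in KO and 13.5 to 19.5 CPM in WT libraries for 3 B cell genes, and 2.87 to 5.51 CPM in KO and 4.57 to 11.7 CPM in WT libraries for 5 myeloid genes. They were 0.542 to 4.26 CPM in KO and 3.91 to 12.8 CPM in WT libraries for 4 granulocyte and mast cell genes, of which S100a9 was at 0 in every WT library. The sum of 4 epithelial and stromal genes was 120 to 140 CPM in KO libraries and 60.9 to 108 CPM in WT libraries, and most of it was Pecam1 and Epcam. In bulk RNA a change in the kinds of cells sorted and a change of RNA per cell cannot be told apart.

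Starts of 69 of the 78 genes could be matched to RefSeq promoter windows on GRCm38.p6, each holding 250 bases before and 50 after the start, and 47 of these starts lay within 50 bases of the 5′ end in the deposited table. Letters known from genes of mitochondrial proteins were searched on both strands, and the same was done in 9164 windows of tested genes. The NRF1 letters GCGCNTGCG, named for a factor that activates many such genes, stood in 18 member windows (26.1%) and in 15.1% of all windows. The ETS letters CCGGAAG, which the factor GABPA also reads, were in 24 (34.8%) and in 19.8%, and 35 member windows (50.7%) held one or both kinds against 31.7% of all windows. The YY1 letters AAGATGGC stood in 12 (17.4%) and in 5.04%. E-box letters (CACGTG), cyclic AMP response letters (TGACGTCA) and TATA box letters (TATAAA) were in 5, 2 and 4 member windows, or 7.25%, 2.9% and 5.8%, against 10.5%, 3.43% and 6.41% of all windows. A match of letters is a description and not a binding site, and the search of 9 or fewer letters ignores near matches.

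Windows are printed for 5 of the 6 members with the lowest p among those higher in KO and for Mrpl33, which went the other way. Capitals mark the letters searched, on either strand, and each window reads 5′ to 3′ on its gene's strand. That of Mrpl32 holds NRF1 letters at a pair of places and YY1 letters near its far end, and that of Mrpl9 holds NRF1 letters in a run that matches on both strands with overlap. Those of Mrpl21 and Mrpl33 hold ETS letters beside the start, that of Mrps18c has ETS letters next to an E-box, and that of Mrps10 has none of the letters. The start of Mrpl33 used here lies 17016 bases from the 5′ end of its deposited span.
Mrpl32, chr13:14612988-14613287, reverse strand: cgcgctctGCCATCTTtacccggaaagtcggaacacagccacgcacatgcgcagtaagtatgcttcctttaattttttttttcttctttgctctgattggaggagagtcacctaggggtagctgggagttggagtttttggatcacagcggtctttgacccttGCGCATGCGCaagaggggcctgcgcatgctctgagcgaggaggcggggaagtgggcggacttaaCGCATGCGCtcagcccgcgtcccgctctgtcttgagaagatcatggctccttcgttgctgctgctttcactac
Mrpl9, chr3:94443086-94443385, forward strand: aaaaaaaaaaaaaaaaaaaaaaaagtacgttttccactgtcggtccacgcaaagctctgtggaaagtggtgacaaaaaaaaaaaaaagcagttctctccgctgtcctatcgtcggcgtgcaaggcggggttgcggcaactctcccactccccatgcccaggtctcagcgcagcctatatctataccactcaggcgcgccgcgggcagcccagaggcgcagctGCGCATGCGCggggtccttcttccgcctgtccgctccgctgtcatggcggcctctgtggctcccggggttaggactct
Mrpl21, chr19:3282792-3283091, forward strand: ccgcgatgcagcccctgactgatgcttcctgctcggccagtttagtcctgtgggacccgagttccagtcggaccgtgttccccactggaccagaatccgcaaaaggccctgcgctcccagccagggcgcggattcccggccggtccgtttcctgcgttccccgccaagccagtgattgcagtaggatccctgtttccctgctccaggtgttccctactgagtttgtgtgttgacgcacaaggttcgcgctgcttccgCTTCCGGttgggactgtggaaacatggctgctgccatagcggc
Mrps18c, chr5:100798509-100798808, forward strand: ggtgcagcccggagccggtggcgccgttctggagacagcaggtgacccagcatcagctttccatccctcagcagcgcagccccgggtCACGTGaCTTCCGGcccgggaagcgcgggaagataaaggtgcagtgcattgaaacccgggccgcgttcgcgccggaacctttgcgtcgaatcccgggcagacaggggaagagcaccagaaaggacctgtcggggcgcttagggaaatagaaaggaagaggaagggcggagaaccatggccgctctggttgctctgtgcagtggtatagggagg
Mrps10, chr17:47368947-47369246, forward strand: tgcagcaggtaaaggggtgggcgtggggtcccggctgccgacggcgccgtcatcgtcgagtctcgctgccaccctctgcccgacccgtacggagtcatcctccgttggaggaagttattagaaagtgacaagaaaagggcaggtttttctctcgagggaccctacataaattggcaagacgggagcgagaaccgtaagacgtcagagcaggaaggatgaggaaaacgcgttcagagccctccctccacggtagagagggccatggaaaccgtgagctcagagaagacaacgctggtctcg
Mrpl33, chr5:31613701-31614000, forward strand: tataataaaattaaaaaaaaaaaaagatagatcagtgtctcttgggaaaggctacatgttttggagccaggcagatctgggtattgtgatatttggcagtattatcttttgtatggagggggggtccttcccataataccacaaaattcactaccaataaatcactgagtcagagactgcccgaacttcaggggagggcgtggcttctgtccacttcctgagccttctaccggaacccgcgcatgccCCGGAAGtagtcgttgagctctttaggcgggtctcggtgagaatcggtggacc

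In the fit to all 6 libraries most members were higher in KO, but no member passed the test. The log2 difference, KO over WT, was above 0 for 76 members and below 0 for 2, with a median of 0.36 where the median over all 14052 tested genes was 0.02. The quartiles over members were 0.22 and 0.52, and the range ran from -0.43 for Mrpl33 to 0.96 for Mrpl47. No gene at all was called (percent called 0), and the smallest adjusted p of a member was 0.342 by edgeR's quasi-likelihood test. At an unadjusted p below 0.05 stood 15 members (19.2%), beside 14.4% of all genes. DESeq2 on the same counts called 323 genes (2.3%), of which 0.107% of tested genes were higher and 2.19% lower in KO, with 0 members among them, and limma-voom called none.

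The WT libraries differed from each other by more than the means of the labels did. Together the members had 6377, 6670 and 5883 CPM in KO 1, KO 2 and KO 3, against 4110, 4438 and 6098 CPM in WT 1, WT 2 and WT 3, or 0.588% to 0.667% of a KO library and 0.411% to 0.610% of a WT library. The means were 6310 ± 398 CPM in KO and 4882 ± 1066 CPM in WT (SD, n = 3 each). WT 1 and WT 2 stood apart from the other 4 libraries, and WT 3 lay between KO 3 and KO 1. Measured as a gene's deviation from its own 6-library mean on the log2 scale, the median member was at 0.22, 0.28 and 0.07 in the KO libraries and at -0.39, -0.33 and 0.14 in the WT libraries. Of the 78 members, 76, 77 and 55 were above their own mean in KO 1, KO 2 and KO 3, and 2, 6 and 71 in WT 1, WT 2 and WT 3.

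**Figure D1:**
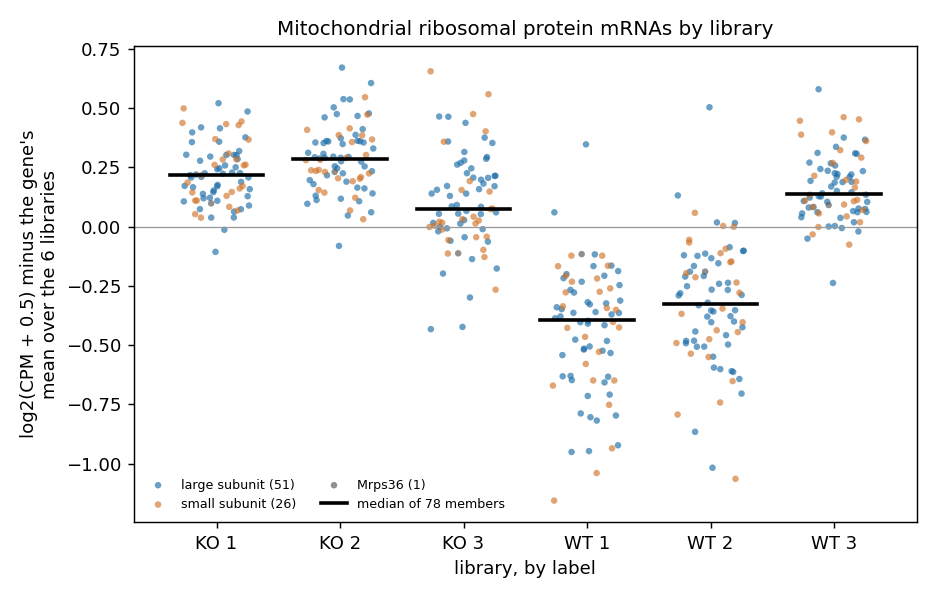
Each point is 1 of the 78 members in 1 library, as log2(CPM + 0.5) minus that gene's mean over the 6 libraries. Black lines are the medians, at 0.22, 0.28 and 0.07 in KO 1 to KO 3 and at -0.39, -0.33 and 0.14 in WT 1 to WT 3.

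Gene by gene the pattern was much the same. WT 1 and WT 2 were the lowest pair of libraries for 69 members, an order found in 29.6% of all tested genes, and the highest pair for 1, Mrpl33. WT 3 fell inside the range of the KO libraries for 50 members, below all of them for 22 and above all of them for 6, which were Mrpl30, Mrpl38, Mrpl39, Mrps2, Mrps5 and Mrps22, named after their values were seen. The 22 with KO libraries all above all WT libraries make 28.2% of the members, beside 9.26% of tested genes, and the opposite order occurred in 0 members and 9.22% of tested genes. They comprised 16 large subunit and 6 small subunit genes, the 6 all of the bacterial type. KO 3 was the lowest of the KO libraries for 59 members and the highest for 11. Over the 3003 pairs of members the median Pearson correlation of log2 levels across the 6 libraries was 0.89, and 90.6% of pairs exceeded 0.5, beside 26.3% of pairs of all tested genes. These correlations rest on the same 6 libraries and mostly on the step between WT 1 and WT 2 and the rest. Likeness to the median of the other members was above 0.9 for 54 members and below 0 for 2, Mrpl18 and Mrpl33.

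Without WT 3, 53 of 78 members rose, 1 fell and 24 did not pass, in a comparison that called 4991 of 14743 genes (33.9%), 17.7% higher and 16.1% lower in KO. Of the 6 fits that leave out 1 library, this is the one that made calls, and it is given in full because of the Atg5 level of WT 3. The median log2 difference was 0.54 over the members, with quartiles of 0.33 and 0.83. Over the 14052 genes tested with all libraries the median in this fit was 0.03. The large subunit had 38 of 51 genes higher (median 0.56) and the small subunit 15 of 26 (median 0.53). In the large subunit 23 of 30 bacterial-type genes (median 0.65) and 15 of 21 mitochondria-specific genes (median 0.51) rose, and in the small subunit 9 of 16 (median 0.47) and 6 of 10 (median 0.68). Differences between these classes were not tested.

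Marker genes also differed between labels in the fit without WT 3, and most of those that passed were lower in KO. Of the 10 ILC2 markers, 6 were lower and 1 was higher in KO, beside 16.1% lower and 17.7% higher of all tested genes. Lower were Gata3, Rora, Il1rl1, Klrg1, Id2 and Ptprc, and higher was Il13. Il7r, Il5 and Areg did not pass. Klrg1, a surface receptor, had 174, 163 and 121 CPM in KO libraries, against 526, 556 and 154 CPM in WT libraries (log2 difference -1.82), and Gata3, the lineage transcription factor, had 900, 925 and 927 CPM in KO libraries, against 1559, 1533 and 964 CPM in WT libraries (-0.75). Il13, a type 2 cytokine, had 367, 367 and 286 CPM in KO libraries, against 99.0, 117 and 355 CPM in WT libraries (1.66). Of markers of other cells, Pecam1, of endothelium and some leukocytes, had 107, 92.0 and 131 CPM in KO libraries, against 10.4, 8.54 and 93.1 CPM in WT libraries, and rose (3.55, adjusted p = 6.03e-05). Epcam, of epithelium, had 12.6, 13.7 and 8.90 CPM in KO libraries, against 57.4, 52.3 and 14.3 CPM in WT libraries, and fell (-2.22). In all 5 of these genes, WT 1 and WT 2 stood apart from the other 4 libraries, as they did for the members. In the other lists 1 of 6 T cell, 1 of 5 myeloid and 1 of 3 granulocyte and mast cell genes tested were lower. These were Cd3g, Cd68 and Fcer1a. Cd68 and Fcer1a had low levels, at most 7.77 and 2.46 CPM in any library. None was higher, and neither of the 2 B cell genes tested passed. The part of these genes in the members' differences was not tested.

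In the fit without WT 3 the SD of the log2 differences was 0.387 over members and 1.32 over all 14743 tested genes. These sets were not matched for level. The lowest member averaged 28.7 CPM, whereas the tested genes include low-count ones. Over the 14052 genes tested with all libraries the differences ran from -11.2 to 11.6. Quartiles were 0.33 and 0.83 over members, and -0.48 and 0.51 over the 14052 genes tested with all libraries. Leaving out KO 3 as well gave 71 higher and 1 lower, beside 22.7% of genes in each direction, and kept all 54 members called without WT 3.

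**Figure D2:**
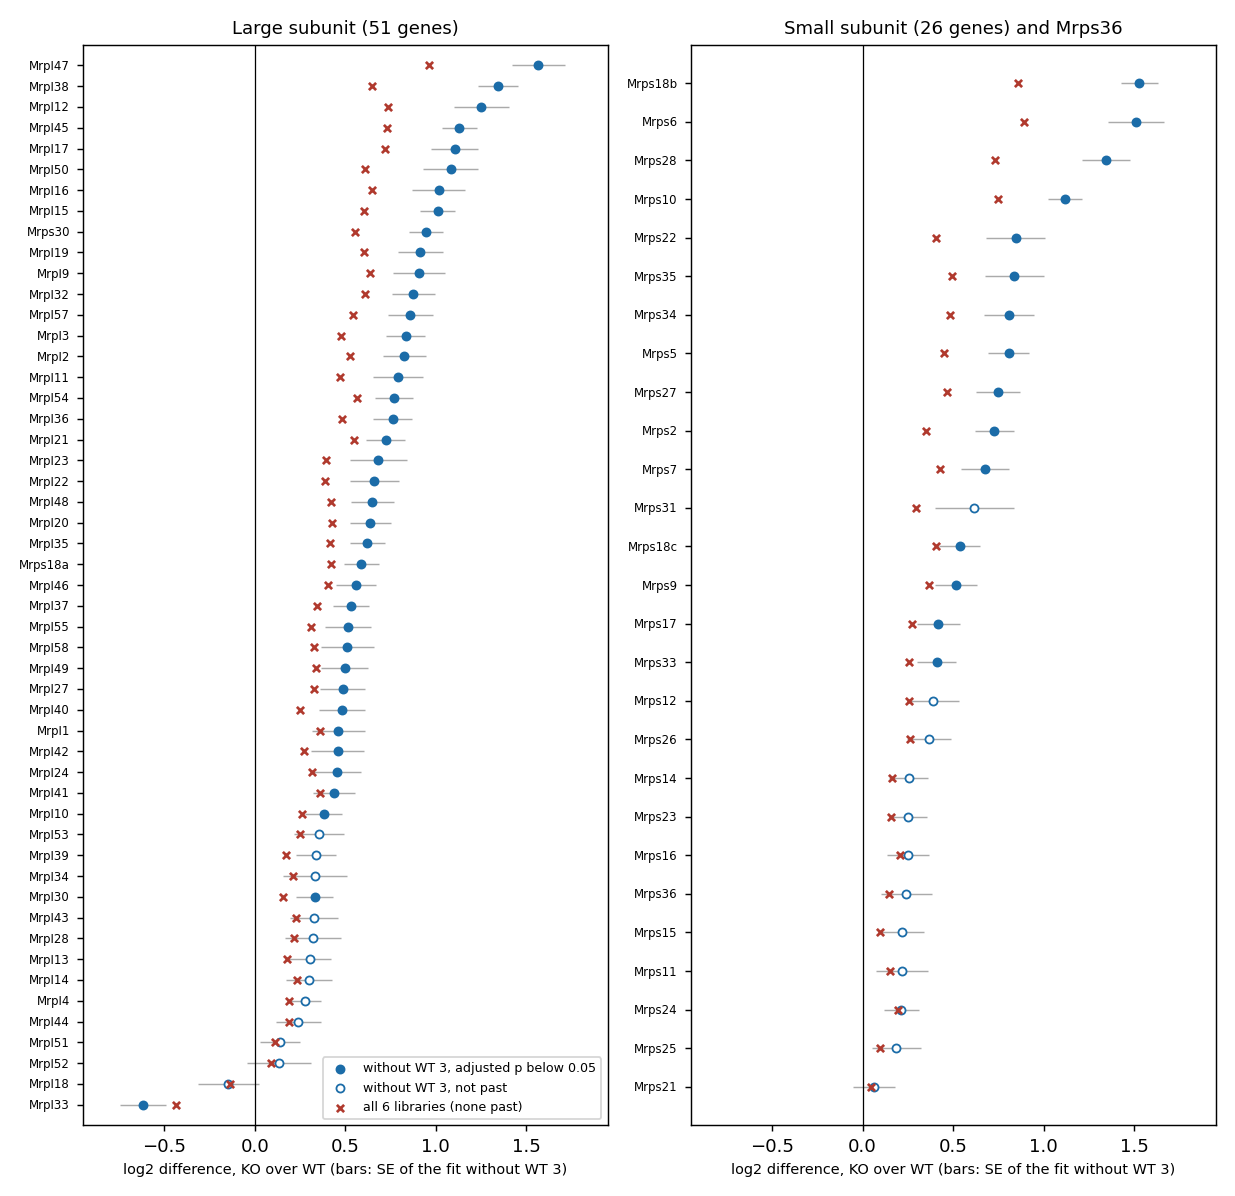
Log2 differences of the 78 members, KO over WT, for the large subunit (left) and the small subunit with Mrps36 (right), ordered by the fit without WT 3. Filled circles passed at an adjusted p below 0.05 without WT 3, and open circles did not. Bars are standard errors derived from the test statistic of that fit. Crosses are the fit to all 6 libraries, in which 0 members passed.

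The 6 members with the lowest p among those higher in KO were Mrpl21, Mrpl54, Mrps10, Mrpl9, Mrpl32 and Mrps18c, and the KO libraries lay above every WT library for each. Mrps10, a small subunit protein of the bacterial S10 family, had 113, 110 and 111 CPM in KO 1, KO 2 and KO 3, against 49.6, 53.1 and 95.6 CPM in WT 1, WT 2 and WT 3. Its log2 difference was 0.75 (SE 0.26, adjusted p = 0.342) with all libraries and 1.12 (SE 0.094, adjusted p = 0.000252) without WT 3. Mrpl32, whose protein is trimmed by a mitochondrial protease before it enters the large subunit, had 147, 155 and 175 CPM in KO libraries, against 80.9, 93.4 and 139 CPM in WT libraries. Here KO 3 was the highest library and not the lowest of its label. Its difference was 0.61 (SE 0.22) with all libraries and 0.88 (SE 0.12, adjusted p = 0.00154) without WT 3.

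Mrpl9, the counterpart of bacterial L9, had 61.0, 50.6 and 63.9 CPM in KO libraries and 29.7, 33.0 and 50.3 CPM in WT libraries. WT 3 was nearly level with KO 2. Mrpl54, found in mitochondrial large subunits and not in bacterial ones, had 85.3, 93.3 and 89.4 CPM in KO libraries and 50.2, 55.1 and 76.0 CPM in WT libraries. Mrpl21, the counterpart of bacterial L21, had 80.4, 83.7 and 73.9 CPM in KO libraries, against 46.5, 50.01 and 66.0 CPM in WT libraries. All 3 rose without WT 3, by 0.91, 0.77 and 0.72 on the log2 scale (adjusted p = 0.00283, 0.00152 and 0.00241), and with all libraries the differences were 0.64, 0.56 and 0.55 (adjusted p = 0.342 each).

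The 3 genes of the Mrps18 family encode related proteins that occupy different places, Mrps18c the place of bacterial S18, Mrps18b another in the small subunit and Mrps18a one in the large subunit. Mrps18b stood at 134, 144 and 145 CPM in KO libraries, against 51.2, 46.8 and 135 CPM in WT libraries. WT 3 was level with KO 1, and WT 1 and WT 2 were far below. Its difference was 0.86 (SE 0.40, adjusted p = 0.353) with all libraries and 1.53 (SE 0.10, adjusted p = 0.000108) without WT 3, the lowest adjusted p of any member in that fit. Mrps18a had 75.7, 79.3 and 76.6 CPM in KO libraries and 51.3, 51.9 and 70.0 CPM in WT libraries. Mrps18c had 65.1, 71.4 and 64.1 CPM in KO libraries, against 43.6, 49.0 and 58.6 CPM in WT libraries. Both kept every KO library above every WT library, and both rose by less than Mrps18b without WT 3, by 0.59 (adjusted p = 0.00343) and 0.54 (adjusted p = 0.0107). That difference between paralogs was not tested. Exons of Mrps18b overlap those of the gene model Gm16279 on the other strand, and exons of Mrps18c overlap those of Gm43511 on the same strand.

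Among large subunit members with a known task, Mrpl12, which in human cells also binds the mitochondrial RNA polymerase, had 183, 199 and 147 CPM in KO libraries, against 68.7, 80.0 and 169 CPM in WT libraries. WT 3 exceeded KO 3, and without WT 3 the difference was 1.25 (SE 0.15, adjusted p = 0.001). Mrpl45, which faces the inner membrane where products are inserted, had 194, 208 and 191 CPM in KO libraries and 85.8, 95.5 and 176 CPM in WT libraries. Its groups did not overlap, with a difference of 0.73 (SE 0.28, adjusted p = 0.342) with all libraries and 1.13 (SE 0.098, adjusted p = 0.000282) without WT 3. Mrpl3, near the centre where peptide bonds form, had 93.9, 98.9 and 87.2 CPM in KO libraries, against 49.9, 55.3 and 96.1 CPM in WT libraries. Mrpl11, at the base of the stalk that receives translation factors, had 58.9, 58.9 and 47.7 CPM in KO libraries and 31.4, 32.5 and 55.5 CPM in WT libraries. Mrps30 had 105, 104 and 112 CPM in KO libraries and 55.3, 56.2 and 107 CPM in WT libraries. For these 3 WT 3 lay among the KO libraries, and without it they rose by 0.84, 0.79 and 0.95 (adjusted p = 0.00136, 0.00446 and 0.000445).

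A pair of large subunit members resemble enzymes. Mrpl58, a peptidyl-tRNA hydrolase built into the large subunit, had 43.2, 53.3 and 43.8 CPM in KO libraries, against 30.9, 35.0 and 45.8 CPM in WT libraries, and rose by 0.51 (adjusted p = 0.0316) without WT 3. Mrpl44, whose fold resembles that of RNase III, had 43.5, 45.3 and 52.1 CPM in KO libraries and 40.4, 39.4 and 43.7 CPM in WT libraries. It did not pass, at 0.24 (adjusted p = 0.184) without WT 3, with KO 1 below WT 3.

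In the small subunit, Mrps22 and Mrps27 are mitochondria-specific, and Mrps27 belongs to the pentatricopeptide repeat proteins. Mrps22 had 54.7, 49.0 and 40.2 CPM in KO libraries, against 25.1, 28.5 and 55.0 CPM in WT libraries, and Mrps27 had 53.6, 60.4 and 63.7 CPM in KO libraries, against 36.8, 34.1 and 57.6 CPM in WT libraries. Both rose without WT 3, by 0.85 (adjusted p = 0.00729) and 0.75 (adjusted p = 0.00364), and WT 3 was the highest of all libraries for Mrps22. Mrps12, the counterpart of the bacterial protein at the decoding centre, had 82.9, 78.3 and 63.5 CPM in KO libraries, against 53.5, 61.2 and 73.3 CPM in WT libraries, and missed the threshold at 0.39 (adjusted p = 0.0763). Mrps16, linked to respiratory chain disease in humans, had 73.1, 83.3 and 71.3 CPM in KO libraries and 61.0, 67.3 and 68.9 CPM in WT libraries. Its groups did not overlap, but at 0.25 it did not pass (adjusted p = 0.14). Mrps36, which is not a ribosomal protein by its present assignment, had 41.2, 45.2 and 35.5 CPM in KO libraries, against 35.4, 33.6 and 41.0 CPM in WT libraries, and at 0.24 did not pass (adjusted p = 0.236).

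Mrpl33 and Mrpl18 were the 2 members with a negative difference. Mrpl33, a small protein of the bacterial L33 family, had 131, 133 and 105 CPM in KO libraries, against 180, 200 and 120 CPM in WT libraries. WT 1 and WT 2 were its highest libraries, the reverse of most members. Its difference was -0.43 (SE 0.22, adjusted p = 0.361) with all libraries, and without WT 3 it fell, with -0.62 (SE 0.13, adjusted p = 0.00917). Its exons overlap those of the gene model Gm43809 on the same strand over 107 bases. Mrpl18, whose bacterial counterpart binds 5S ribosomal RNA, had 149, 148 and 102 CPM in KO libraries, against 144, 151 and 142 CPM in WT libraries. KO 3 alone was low and the other 5 were level, so the difference of -0.13 (adjusted p = 0.679) changed sign to 0.01 without both libraries numbered 3. Mrps21, the counterpart of bacterial S21, was nearly level too, at 81.7, 87.9 and 73.5 CPM in KO libraries and 73.0, 82.8 and 79.5 CPM in WT libraries (difference 0.05, adjusted p = 0.853).

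**Figure D3:**
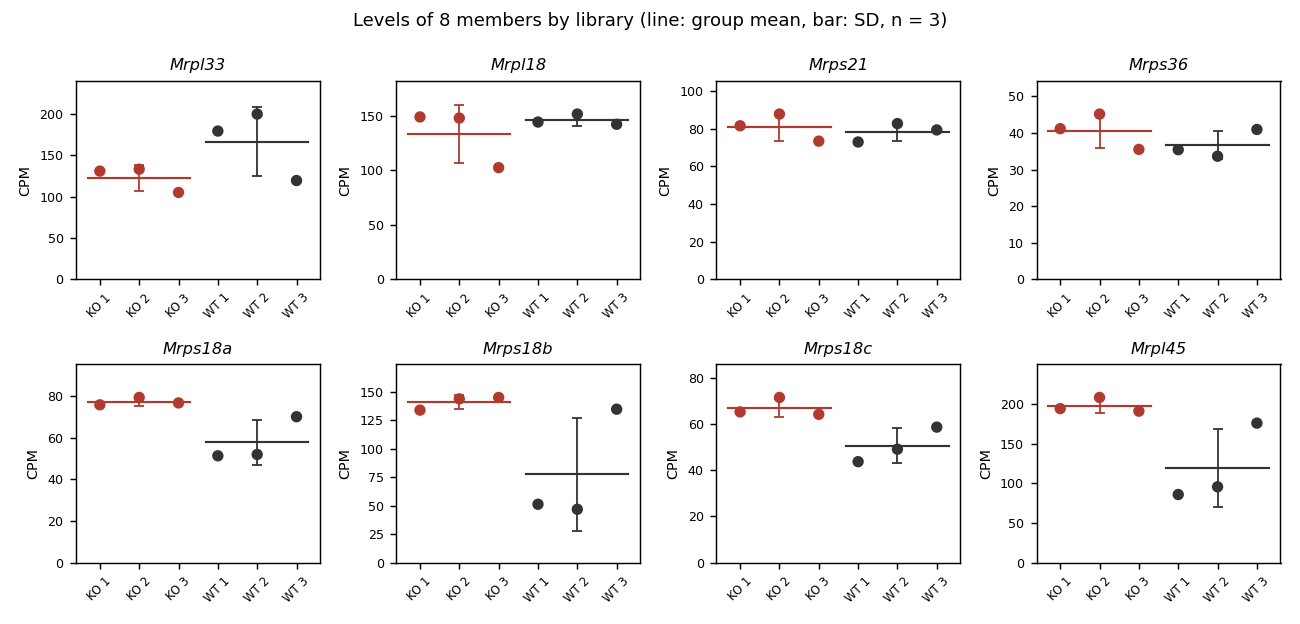
CPM of 8 members in each library, KO in red at the left and WT in dark grey at the right, with lines at the means and bars of 1 SD (n = 3). WT 1 and WT 2 are the highest libraries for Mrpl33 and the lowest for the 3 Mrps18 genes and Mrpl45, whereas Mrpl18, Mrps21 and Mrps36 are nearer to level.

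The remaining genes fill the range between these. Without WT 3, 12 members had a log2 difference above 1, namely Mrpl12, Mrpl15, Mrpl16, Mrpl17, Mrpl38, Mrpl45, Mrpl47, Mrpl50, Mrps6, Mrps10, Mrps18b and Mrps28, listed because of those values. The highest was that of Mrpl47, of the bacterial L29 family, with 38.9, 43.3 and 36.7 CPM in KO libraries and 13.8, 13.1 and 34.2 CPM in WT libraries (1.57, SE 0.14, adjusted p = 0.000343). With all libraries it was 0.96 (SE 0.38, adjusted p = 0.342), and its exons overlap those of neighbouring genes. Mrps6 and Mrpl38, also picked for their values, show the same step. Mrps6 had 68.6, 64.4 and 76.5 CPM in KO and 21.5, 27.8 and 63.5 CPM in WT libraries. Its exons overlap those of Gm49711 and Slc5a3 on the same strand. Slc5a3 had 2.53, 5.38 and 6.06 CPM in KO and 0.69, 0.92 and 4.21 CPM in WT libraries, and the part of this overlap was not tested. Mrpl38 had 64.8, 66.7 and 62.1 CPM in KO and 24.8, 26.3 and 72.5 CPM in WT libraries. The members that did not pass were, in the large subunit, Mrpl4, Mrpl13, Mrpl14, Mrpl18, Mrpl28, Mrpl34, Mrpl39, Mrpl43, Mrpl44, Mrpl51, Mrpl52 and Mrpl53. In the small subunit they were Mrps11, Mrps12, Mrps14, Mrps15, Mrps16, Mrps21, Mrps23, Mrps24, Mrps25, Mrps26 and Mrps31, and the last was Mrps36. A difference within 0.25 of 0 was found for 11 members.

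Levels per length differed widely between members, with an SD of log2 CPM per kb over members of 1.11, 1.12 and 1.09 in KO 1, KO 2 and KO 3, against 1.23, 1.23 and 1.10 in WT 1, WT 2 and WT 3. Expressed as CPM per kb of exon, the median member had 54.8, 57.8 and 52.4 in KO 1, KO 2 and KO 3, against 33.2, 36.2 and 50.2 in WT 1, WT 2 and WT 3, where the median protein-coding gene of each library had 8.5 to 8.9. By the mean of 6 libraries, the highest were Mrpl33 at 303, Mrpl42 at 166, Mrps21 at 162 and Mrpl54 at 124 CPM per kb. The lowest were Mrps25 at 6.97, Mrpl1 at 7.95 and Mrpl47 at 8.92 CPM per kb, and 64 of 78 lay between 10 and 100. In this order 76 of 77 neighbouring pairs had overlapping ranges over the libraries, the step below Mrpl33 being the other. Exon length here is the union of annotated exons, so a gene with a long rarely used exon gets a low value. Summed CPM of the large subunit was 2.13, 2.20 and 2.16 times that of the small subunit in KO libraries, against 2.19, 2.20 and 2.11 times in WT libraries, ranges that overlap.

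**Figure D4:**
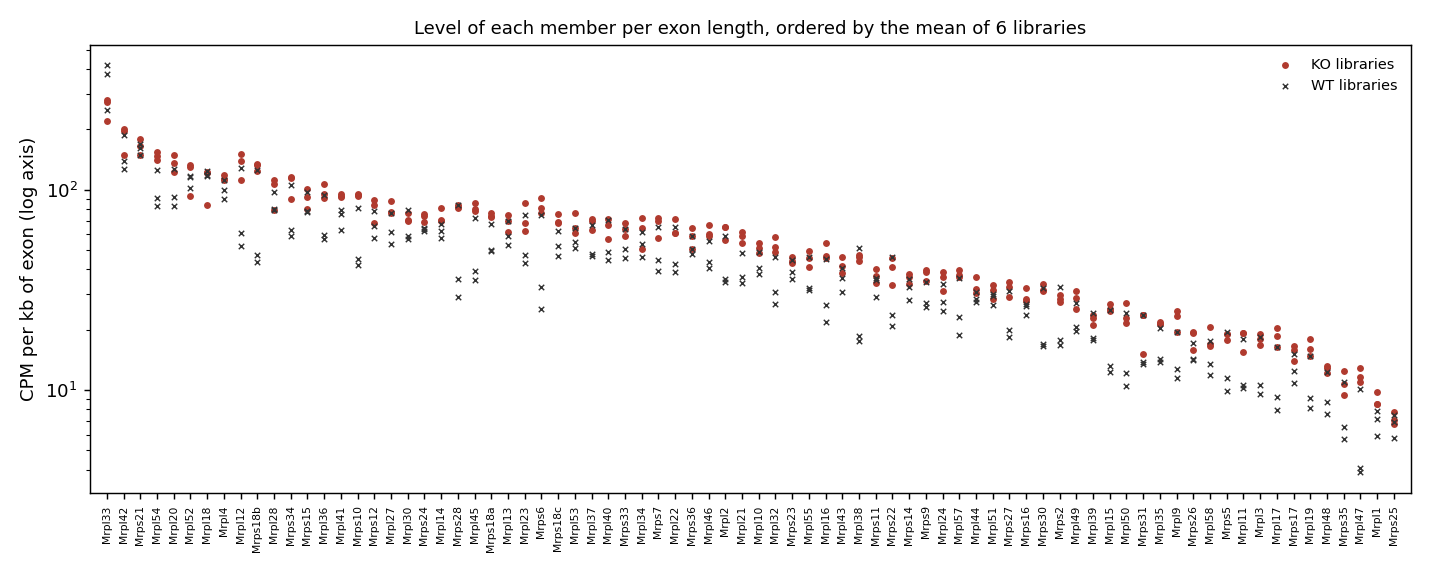
CPM per kb of exon of the 78 members on a log axis, ordered by the mean of 6 libraries, with KO libraries as red dots and WT libraries as black crosses. Mrpl33 is highest at a mean of 303 and Mrps25 lowest at 6.97, and for most members 2 of the 3 WT crosses lie below the dots.

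Mrpl42, a mitochondria-specific large subunit protein, had 133, 136 and 101 CPM in KO libraries, against 86.5, 94.0 and 127 CPM in WT libraries, and passed narrowly without WT 3 (0.46, adjusted p = 0.0488). Mrpl1, of the mobile L1 stalk, had 36.4, 36.6 and 42.1 CPM in KO libraries, against 25.3, 30.7 and 33.8 CPM in WT libraries. Its groups did not overlap and without WT 3 it rose by 0.46 (adjusted p = 0.0474). Mrps25, a mitochondria-specific small subunit protein, had 47.2, 43.1 and 40.9 CPM in KO libraries and 35.1, 42.1 and 45.6 CPM in WT libraries, with groups that overlap and a difference of 0.19 without WT 3 (adjusted p = 0.339).

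Sequence surroundings were set beside the size of the difference as a description, without a test. Across members the rank correlation with exon length was 0.265 without WT 3, where across all tested genes it was -0.121. These are correlations across genes, which are not independent replicates. The median difference without WT 3 was 0.59 for the 18 members with NRF1 letters and 0.51 for the 51 without, 0.45 for the 24 with ETS letters and 0.53 for the 45 without, and 0.56 for the 12 with YY1 letters and 0.51 for the 57 without. Exons of 33 members overlap those of another gene, among them Mrpl46 and Mrps11, which lie head to head on chromosome 7. Of these 33, 21 (63.6%) were higher without WT 3, and of the 45 without overlap 32 (71.1%) were.

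Genes that work with the mitochondrial ribosome were mostly higher in the libraries labelled KO as well, and none passed with all 6 libraries. Values in brackets in the next 3 paragraphs are log2 differences without WT 3. Of 6 genes listed with the ribosome under other symbols, Ndufab1 among them, 6 rose without WT 3 (median 0.75). In that fit 17.7% of all tested genes were called higher and 16.1% lower. Chchd1, a small subunit protein, had 84.9, 93.2 and 68.6 CPM in KO libraries, against 44.7, 49.1 and 78.4 CPM in WT libraries (0.82, adjusted p = 0.00585). Gadd45gip1, a large subunit protein, had 84.7, 90.6 and 75.8 CPM in KO libraries and 42.6, 46.4 and 82.4 CPM in WT libraries (0.92, adjusted p = 0.00133). Ndufab1 encodes the mitochondrial acyl carrier protein and is not itself a ribosomal protein. It had 162, 180 and 139 CPM in KO libraries and 86.6, 94.7 and 159 CPM in WT libraries (0.83, adjusted p = 0.0028). For each of these WT 3 lay within the range of the KO libraries.

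Among 26 assembly factors, 13 rose and 0 fell without WT 3 (median 0.56), beside 17.7% higher and 16.1% lower of all tested genes. Dhx30, an RNA helicase, had 178, 181 and 166 CPM in KO libraries, against 108, 116 and 161 CPM in WT libraries (0.65, adjusted p = 0.00185), and Grsf1, an RNA-granule protein, had 72.3, 54.9 and 58.3 CPM in KO libraries, against 43.6, 39.4 and 53.8 CPM in WT libraries (0.58, adjusted p = 0.0221). Eral1, a chaperone of the small subunit RNA, had 41.2, 47.1 and 45.4 CPM in KO libraries, against 34.9, 34.9 and 34.0 CPM in WT libraries. Here all 3 WT libraries, WT 3 included, were level and lay below all KO libraries, yet its difference of 0.37 with all libraries (adjusted p = 0.342) and of 0.36 without WT 3 (adjusted p = 0.0543) did not pass. Of 16 translation factors, 7 rose and 0 fell (median 0.43), beside the same shares of all tested genes. Tufm, the elongation factor that brings aminoacyl-tRNA, had 147, 145 and 110 CPM in KO libraries and 76.0, 83.0 and 136 CPM in WT libraries (0.76, adjusted p = 0.0074). Tsfm, which recharges Tufm, had 79.9, 83.9 and 63.5 CPM in KO libraries and 36.0, 38.3 and 77.6 CPM in WT libraries (1.04, adjusted p = 0.0019). The initiation factor Mtif3 had 29.5, 29.1 and 31.8 CPM in KO libraries, against 20.6, 27.4 and 24.3 CPM in WT libraries, and did not pass (0.34, adjusted p = 0.162).

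Of 12 genes of mitochondrial DNA transcription and upkeep, 8 rose and 1, the DNA polymerase gene Polg, fell without WT 3 (median 0.76). These counts stand beside 17.7% higher and 16.1% lower of all tested genes. Twnk, the replicative helicase, had 32.1, 30.6 and 30.6 CPM in KO libraries, against 13.2, 11.4 and 28.8 CPM in WT libraries (1.34, adjusted p = 0.000711), and its exons overlap those of the member Mrpl43. Ssbp1, which coats single-stranded mitochondrial DNA, had 98.8, 103 and 89.6 CPM in KO libraries, against 52.7, 49.4 and 89.0 CPM in WT libraries (0.93, adjusted p = 0.000819). Tfb2m, a transcription factor of mitochondria, had 36.8, 35.0 and 35.9 CPM in KO libraries, against 21.8, 19.8 and 33.1 CPM in WT libraries (0.80, adjusted p = 0.00336). For these 3, named for the lowest p of the list, the groups did not overlap, with WT 3 just below the lowest KO library for each. For the other 9 the groups overlapped. The 3 make 25% of the list, beside 9.26% of tested genes with KO libraries all above all WT libraries.

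The messenger RNAs that these ribosomes translate had differences of the opposite sign. Summed over the 13 mitochondrially encoded messenger RNAs, the level was 1863, 2526 and 3302 CPM in KO 1, KO 2 and KO 3, against 6108, 4678 and 2169 CPM in WT 1, WT 2 and WT 3. All 13 had a negative difference in both fits, and 0 passed with all libraries (median -0.73). Without WT 3, the fit behind the values that follow, 8 fell (median -1.08), beside 16.1% of all tested genes. mt-Cytb, a subunit of complex III, had 249, 312 and 395 CPM in KO libraries, against 1051, 774 and 298 CPM in WT libraries, and fell by 1.51 on the log2 scale (adjusted p = 0.00155). mt-Atp6, of the ATP synthase, had 206, 257 and 298 CPM in KO libraries, against 523, 438 and 244 CPM in WT libraries, and fell by 0.91 (adjusted p = 0.00468). mt-Co1, of complex IV, had 387, 517 and 767 CPM in KO libraries, against 1713, 1252 and 468 CPM in WT libraries, and fell by 1.41 (adjusted p = 0.007). For each of these 3 WT 3 lay inside the range of the KO libraries. The RNAs of the mitochondrial ribosome itself did not pass, with 43.6, 58.7 and 100 CPM in KO and 92.1, 74.2 and 46.2 CPM in WT libraries for mt-Rnr1, and 385, 554 and 987 CPM in KO and 844, 627 and 400 CPM in WT libraries for mt-Rnr2. Recovery of these RNAs depends on how libraries were primed, and this step is not described in the labels.

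Proteins of the cytosolic ribosome, encoded by other nuclear genes, were likewise lowest in WT 1 and WT 2. Their sum was 34945, 37816 and 34570 CPM in KO libraries, against 19765, 22364 and 32990 CPM in WT libraries. Without WT 3, 75 of 81 tested genes rose and 0 fell (median 0.82), beside 17.7% higher and 16.1% lower of all tested genes. With all libraries 0 passed (median 0.55). Many of these genes share reads with pseudogenes, so their levels are uncertain.

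**Figure D5:**
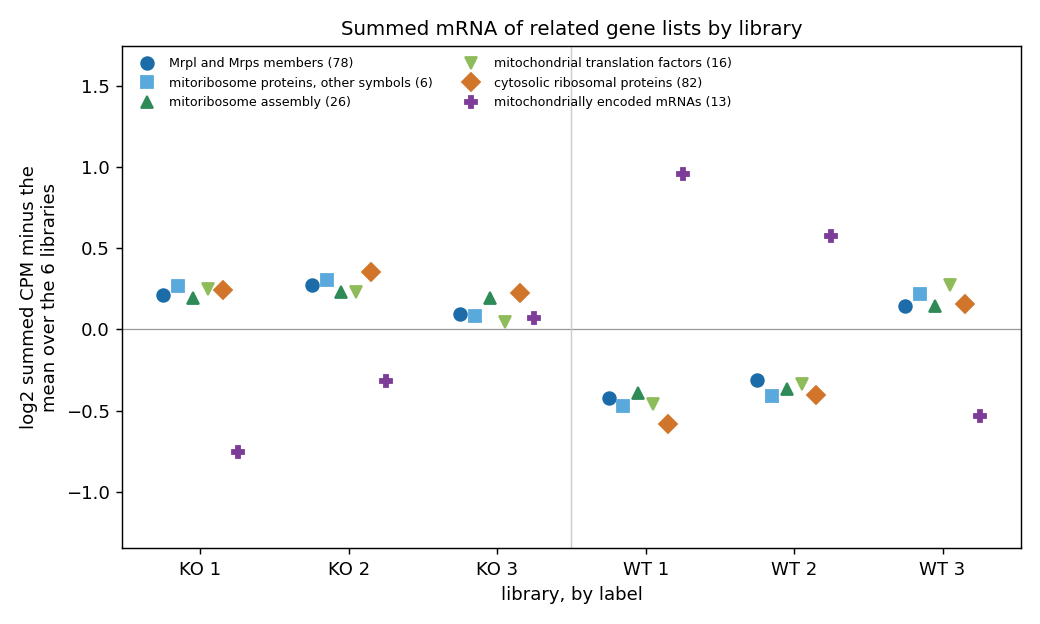
Log2 of the summed CPM of each gene list in each library, minus its mean over the 6 libraries. KO libraries are left of WT libraries, and the number of genes is in brackets. The list drawn as mitoribosome proteins with other symbols includes Ndufab1, which is not a ribosomal protein. All lists of nuclear genes are below 0 in WT 1 and WT 2 and above 0 in the other 4 libraries, and the mitochondrially encoded messenger RNAs are highest in WT 1 and WT 2.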

How the data were processed

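RNA from sorted lung ILC2s was sequenced in 6 libraries, grouped by title. The authors deposited estimated counts per gene, whole for 47.1% to 48.5% of genes in a library (within 1e-06), and mm10, Partek, STAR and CASAVA 1.8.2 appear, without roles, in the submitters' processing notes. The treatment of strand and of multi-mapping reads is not stated, so values of members with pseudogenes or overlapping genes are uncertain.

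Counts were rounded and tested on all genes in R 4.3.3 with edgeR 4.0.16 (TMM, filterByExpr, robust glmQLFit, glmQLFTest), KO against WT without covariates, with Benjamini-Hochberg adjustment at 0.05. Each SE (standard error) printed was derived from the test, as the absolute log2 difference divided by the square root of the F statistic. CPM use TMM-adjusted totals, and log2 levels add 0.5 CPM. Exons are those of GENCODE vM21. The test was tried on simulated data. Alternatives were other scalings and filters, DESeq2 1.42.0, limma-voom (limma 3.58.1), a replicate block and each library left out. The fit without both libraries numbered 3 was chosen after seeing the data.

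Named genes are the 6 higher and up to 4 lower members with the lowest p, the 4 highest and 3 lowest per kb, 15 chosen for role, any member called without WT 3 against the median, the 3 with the lowest p of each mitochondrial list, and Atg5. Members and lists were chosen with earlier results of these data known.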

Additional observations from a re-analysis of the deposited data

How the results depend on the processing

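With all 6 libraries 0 members passed, 0 higher and 0 lower, under DESeq2 size factors, upper-quartile scaling, library totals, no filter, at least 2 CPM in 3 libraries, limma-voom and DESeq2, and the members' median log2 difference ranged from 0.327 to 0.374 under these. DESeq2 called 323 genes where edgeR called 0. Deviations of same-numbered libraries had an r of -0.037, 0.020 and -0.0078 for numbers 1, 2 and 3. With 3 libraries a label, these values cannot decide whether the numbers pair the libraries. With the replicate number as a block 0 members and 0 genes passed, with a median of 0.374. Leaving out 1 library in turn gave 0 to 53 members higher, 0 to 1 lower, a median of 0.232 (without WT 1) to 0.535 (without WT 3) and 0 to 4991 genes called, and all of those calls came without WT 3. Without both libraries numbered 3 it was 71 members higher, 1 lower, a median of 0.588 and 6505 genes. Of 43 named genes, 34 gained a call without WT 3, where 33.9% of all tested genes were called. Without both numbered 3 it was 38, where 45.4% were called. Many named genes were picked by their values in these data. Atg5, whose level singled out WT 3, is among the 34, so these counts are no test. The sign of the log2 difference turned for 3 members, and the cause was not tested. With 1 library left out, Mrps21 ranged from -0.0451 (without KO 2, and also below 0 without WT 1) to 0.118, Mrps25 from -0.0293 (without WT 1) to 0.186, and Mrpl18 from -0.246 to 0.0291 (without KO 3), and Mrpl18 was at 0.0132 without both numbered 3. With 3 libraries a label, WT 3 against its label by Atg5 and KO 3 intermediate, few libraries stand behind each label, and the effect of depth was not tested.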
